A study of Mus musculus with 2 samples.

Results

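The nuclear genes followed here maintain the mitochondrial genome, transcribe it or protect its mRNA, and were taken by symbol as 10 of the 22587 gene symbols in the deposited matrices: Tfam, Polrmt, Tfb1m, Tfb2m, Tefm, Twnk, Polg, Ssbp1, Lrpprc and Slirp. All 10 were found, each under 1 Ensembl identifier. The data are single-cell RNA counts from YFP+ cells of the adult mouse hippocampus, sorted for the absence of propidium iodide at 12 weeks of age, 4 weeks after tamoxifen (TAM). Control transgenic mice (CT) carried Nestin-CreERT2 and the ROSA26YFP reporter and were Opa1-Flox negative, and Opa1 cKO mice carried both alleles together with Opa1-Flox. Both genotypes were given TAM at 8 weeks, were kept on a C57/BL/6 background, were heterozygous for Cre and included females and males. The labels give 1 strain for both samples, and the genotype comes from their titles. Cre was driven by Nestin, so YFP marks cells that expressed Nestin when TAM was given and their progeny, and YFP does not show that Opa1 was recombined in a cell. Cells of 3 mice per genotype went into 1 library of the 10x Genomics 3′ v2 assay, so there is 1 library per genotype, no replicate and no test between genotypes. The question was whether these genes were higher or lower where mitochondrially encoded (mt) mRNA was lost.

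The mitochondrial genome is a small circle of DNA that encodes subunits of the respiratory chain, and it is copied and transcribed by proteins that are encoded in the nucleus and imported. TFAM packages the DNA and bends the promoters. POLRMT is the RNA polymerase, TFB2M lets it open the promoter, TEFM keeps it elongating, and TFB1M is a methyltransferase of the small ribosomal RNA. TWNK is the replicative helicase, POLG the catalytic subunit of the DNA polymerase, and SSBP1 the protein that binds single-stranded DNA at the replication fork. LRPPRC and SLIRP form a complex that binds mt mRNAs, protects them from decay and supports their polyadenylation.

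Promoters of 6 members are shown. They include Tfb1m and Polg, the members with the highest and lowest ratio between Opa1 cKO cells low and normal in mt mRNA. Nuclear genes of this kind are textbook targets of the ETS factor GABPA (NRF2) and of NRF1. Each run covers 160 bases before to 20 bases after a RefSeq start (GRCm38.p6, which is mm10), 5′ to 3′ on the gene's strand, with matches in capitals to the ETS word CCGGAAG or the NRF1 word (GCGC, then NN, then GCGC) on either strand.
Polrmt, chr10:79746562-79746741, minus strand: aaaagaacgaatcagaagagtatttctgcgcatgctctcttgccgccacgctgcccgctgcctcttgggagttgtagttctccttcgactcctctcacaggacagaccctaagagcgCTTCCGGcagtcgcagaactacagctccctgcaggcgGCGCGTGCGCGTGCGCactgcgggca
Tefm, chr11:80142134-80142313, minus strand: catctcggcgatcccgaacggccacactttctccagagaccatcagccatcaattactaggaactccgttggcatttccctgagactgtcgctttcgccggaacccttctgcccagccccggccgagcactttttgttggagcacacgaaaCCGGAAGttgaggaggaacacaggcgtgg
Polg, chr7:79466254-79466433, minus strand: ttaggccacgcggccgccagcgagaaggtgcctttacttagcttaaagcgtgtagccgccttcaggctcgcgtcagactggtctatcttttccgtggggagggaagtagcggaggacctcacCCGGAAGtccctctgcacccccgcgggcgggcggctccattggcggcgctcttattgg
Slirp, chr12:87443736-87443915, plus strand: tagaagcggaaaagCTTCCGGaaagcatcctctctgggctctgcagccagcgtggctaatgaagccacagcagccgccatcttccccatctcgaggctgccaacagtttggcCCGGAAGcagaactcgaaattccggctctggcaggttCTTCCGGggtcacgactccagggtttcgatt
Tfb1m, chr17:3557736-3557915, minus strand: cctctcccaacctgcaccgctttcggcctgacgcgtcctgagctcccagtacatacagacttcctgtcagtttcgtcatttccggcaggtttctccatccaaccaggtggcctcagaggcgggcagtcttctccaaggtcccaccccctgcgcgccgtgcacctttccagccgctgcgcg
Tfb2m, chr1:179546257-179546436, minus strand: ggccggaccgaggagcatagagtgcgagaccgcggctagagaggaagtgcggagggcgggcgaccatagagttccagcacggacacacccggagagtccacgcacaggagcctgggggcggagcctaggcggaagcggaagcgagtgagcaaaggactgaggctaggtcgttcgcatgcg
The full windows cover 250 bases before to 50 after the start. In them the ETS word was found in 7 of the 10 members (Tfam, Polrmt, Tefm, Twnk, Polg, Ssbp1 and Slirp). It was found in 9.93% of 27025 genes with RefSeq promoters, each counted over all its listed starts. The members' windows held from 52.0% (Polrmt) to 70.3% (Tfam) of G and C bases, and 46.7% at the first start of Twnk. The median of all promoters was 52.7%. Slirp held 3 copies, and Twnk held 2 in the window of the second of its 2 listed starts. The NRF1 word was found in Polrmt alone, as 2 overlapping copies at the start, and in 6.23% of all promoters. The SP1 word GGGCGG was found in 7 members, among them Tfb1m and Tfb2m, and in 38.2% of those genes. The YY1 word AAGATGGC was found in Slirp (3.19% of those genes). The ATF4 word TGATGNAA was found in none of the 10 (4.51% of those genes). These are letter matches in 1 window and are not shown to be bound.

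Counts are unique molecular identifiers (UMIs), each standing for 1 captured RNA molecule, and levels are given as CPM, a gene's UMIs over all UMIs of a group of cells times 1000000. Intervals are 95% counting intervals, exact Poisson for CPM and exact from the binomial split for a log2 ratio of CPM, and they cover counting error only and not the spread between mice. CT was sequenced to 10799936 UMIs over 4634 barcodes and Opa1 cKO to 18662032 over 6475. The filters kept 1790 and 3764 cells. Of the barcodes, 36 were found in both libraries, 9 of them among kept cells. Cells were clustered on their expression, with mt and stress genes left in, and the clusters were named from marker genes into 7 classes. The class called NSC pool-like (NSC, neural stem cell) is made of the 2 clusters named through astrocyte markers, 9 of 10 of which were over 2-fold higher there, since quiescent NSCs share those markers and the classes are not told apart here. It held 1378 CT and 2583 Opa1 cKO cells. One of its clusters, led by mt genes, held 1374 of those CT cells, and the other, led by Nupr1, Gdf15 and Fibin, held 1791 of those Opa1 cKO cells. Opa1, the targeted gene, was at 18.5 CPM (14.4 to 23.4, 70 UMIs) in CT and 8.13 CPM (6.32 to 10.3, 69 UMIs) in Opa1 cKO NSC pool-like cells. The assay reads the 3′ end of a transcript, and which exons are floxed is not given in the sources used here, so this is a partial check of the label.

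The 13 mt mRNAs took 5.90% of the UMIs of CT NSC pool-like cells and 2.17% of those of Opa1 cKO cells. The Opa1 cKO cells were divided at a share of 1% into 1574 mt-low cells, in which mt mRNAs made up 0.445% of UMIs, and 1009 mt-normal cells, in which they made up 4.95%. A share of 1% is a cut through a range, and 748 of the 2583 cells lay between 0.5% and 2%, 582 of them under 1%. Only 241 cells were at 1 to 3%, against 768 at 3% or more. Whether the cut marks a border between cell states was not tested. In CT, 3 of 1378 cells were under 1%. mt-Nd1 was at 5936 CPM in CT, 4983 in mt-normal and 615 in mt-low cells, and mt-Co1 was at 8367, 6229 and 388 CPM. mt-Cytb was at 8500 CPM in CT, 7183 in mt-normal and 643 in mt-low cells. Opa1 was at 10.5 CPM (7.25 to 14.6, 34 UMIs) in mt-normal and 6.68 CPM (4.65 to 9.28, 35 UMIs) in mt-low cells. The log2 ratio of Opa1 in mt-normal cells over CT was -0.82 (-1.46 to -0.21). The clusters go with the division. The Nupr1-led cluster held 1573 of the 1574 mt-low cells, 218 of the mt-normal cells and 4 of the CT cells. The clustering left in the mt mRNAs that set the division, so this agreement is in part built in.

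Where mt mRNA was lost, 9 of the 10 members were at higher CPM, beside 66.0% of all genes. None was at least 1.5-fold lower, beside 6.16% of all genes. Between mt-low and mt-normal Opa1 cKO NSC pool-like cells, the 10 members summed to 528 CPM (508 to 548, 2766 UMIs) and 425 CPM (403 to 448, 1381 UMIs), a log2 ratio of 0.31 (0.22 to 0.40). Most of the sum is Slirp and Ssbp1, at 236 and 127 CPM in mt-low and 208 and 93.0 CPM in mt-normal cells. Of the 10 members, 5 were at least 1.5-fold higher, namely Polrmt, Tfb1m, Tefm, Twnk and Lrpprc. Over the 10793 genes with at least 20 UMIs in the 2 groups, 15.1% were at least 1.5-fold higher, 6.16% at least 1.5-fold lower and 66.0% above 0. The median log2 ratio was 0.56 over the members and 0.17 over those genes, so that 0.17 of any ratio here is a shift shared with the typical gene. Relative to it, the members' sum was higher by 0.14 on the log2 scale. With each interval set against the median of all genes, those of 2 of the 10 members, Tefm and Ssbp1, lay above it and those of 0 members below it, while 16.3% of genes lay above and 16.1% below. The count of 5 members depended on the cells and the minimum used. It was 1 when cells without a YFP UMI were kept and 2 within the Nupr1-led cluster. It was 2 when cells were clustered without mt, stress and member genes. It was 3 with cells thinned to 1500 UMIs and 3 with the division at 2%. A minimum of 100 UMIs left 2, Tefm and Lrpprc, since Polrmt, Tfb1m and Twnk had 84, 29 and 49 UMIs. Tfb1m passed the minimum of 20 UMIs through the mt-low cells, with 24 UMIs there and 5 in mt-normal cells. Twnk too reached 20 UMIs in the mt-low cells alone, with 35 UMIs there and 14 in mt-normal cells, and its interval held 0. The share of all genes under each of these settings is not given here.

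**Figure D1:**
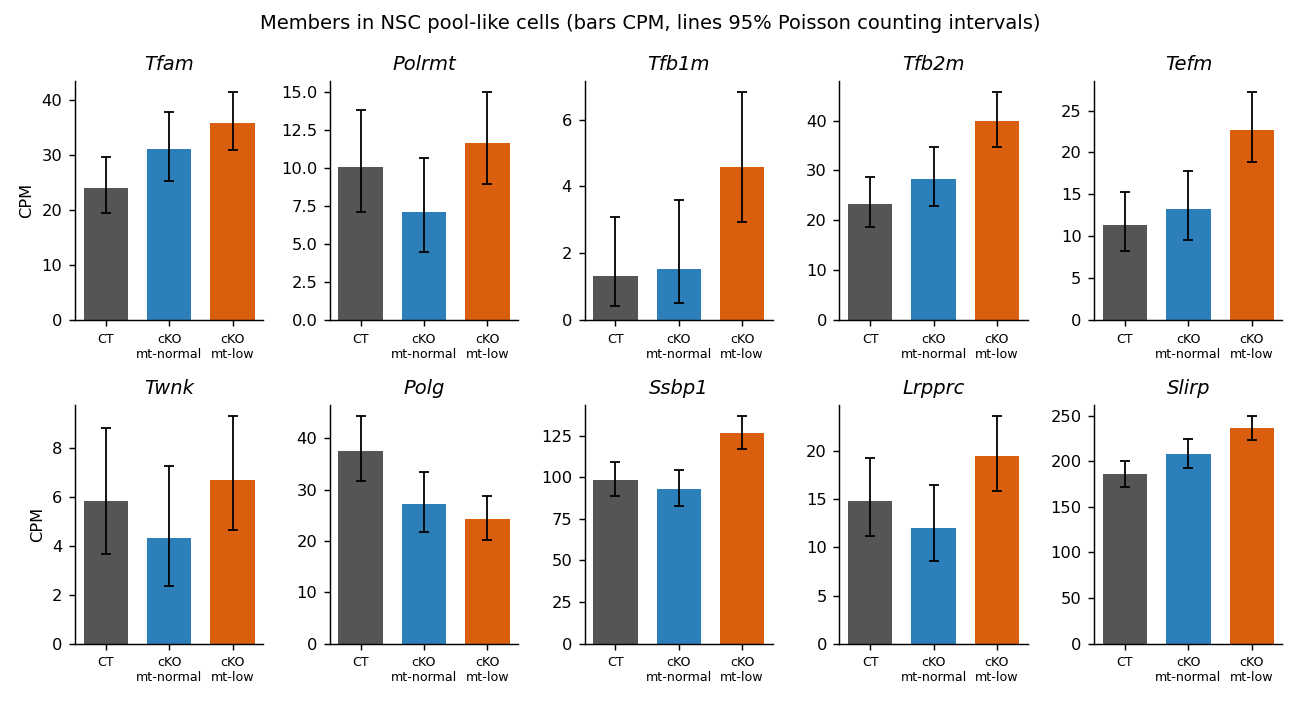
Level of each member in CPM (vertical axis, from 0, its own scale in each panel) in NSC pool-like cells of CT (grey), Opa1 cKO mt-normal (blue) and Opa1 cKO mt-low (orange), with 95% Poisson counting intervals as lines. Each member but Polg is highest in value in mt-low cells, with overlapping intervals for some. Among them, Tfb1m, Tfb2m, Tefm and Ssbp1 are at 4.58, 39.9, 22.7 and 127 CPM. Polg is highest in CT, at 37.6 CPM.

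Among the transcription genes, Tefm (chr11:80136678-80142175, minus strand), the elongation factor, had the clearest difference. It was at 11.4 CPM (8.24 to 15.3, 43 UMIs) in CT, 13.2 CPM (9.59 to 17.8, 43 UMIs) in mt-normal and 22.7 CPM (18.8 to 27.2, 119 UMIs) in mt-low cells. CT and mt-normal cells overlapped, and mt-low cells were above both, with a log2 ratio over mt-normal of 0.78 (0.26 to 1.32). Tfb2m (chr1:179528055-179546267, minus strand), whose product opens the promoter, was at 23.3 CPM (18.7 to 28.7, 88 UMIs) in CT and 28.3 CPM (22.9 to 34.8, 92 UMIs) in mt-normal cells. In mt-low cells it was at 39.9 CPM (34.6 to 45.7, 209 UMIs), a log2 ratio over mt-normal of 0.49 (0.13 to 0.86). Tfb1m (chr17:3519256-3557781, minus strand), its methyltransferase relative, rested on few molecules, with 5 UMIs in CT, 5 in mt-normal and 24 in mt-low cells. These are 1.32, 1.54 and 4.58 CPM, and the log2 ratio of mt-low over mt-normal was 1.57 (0.15 to 3.32).

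The polymerase gene Polrmt (chr10:79736123-79746581, minus strand) was at 10.1 CPM (7.12 to 13.8, 38 UMIs) in CT, 7.08 CPM (4.49 to 10.6, 23 UMIs) in mt-normal and 11.6 CPM (8.90 to 14.9, 61 UMIs) in mt-low cells. The interval of its mt-low over mt-normal ratio, 0.72 (0.00 to 1.48), began at 0, and mt-low and CT cells overlapped. Tfam (chr10:71225464-71238280, minus strand), the packaging factor, was at 24.1 CPM (19.4 to 29.6, 91 UMIs) in CT, 31.1 CPM (25.3 to 37.8, 101 UMIs) in mt-normal and 35.9 CPM (30.9 to 41.4, 188 UMIs) in mt-low cells. Its mt-low over mt-normal ratio of 0.20 (-0.15 to 0.57) lay near the shift of the typical gene.

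Among the replication genes, Ssbp1 (chr6:40471352-40484700, plus strand), which coats single-stranded mt DNA, had the most UMIs and the narrowest interval. It was at 98.5 CPM (88.7 to 109, 372 UMIs) in CT, 93.0 CPM (82.8 to 104, 302 UMIs) in mt-normal and 127 CPM (117 to 137, 664 UMIs) in mt-low cells. CT and mt-normal cells overlapped and mt-low cells were above both, at a log2 ratio over mt-normal of 0.45 (0.25 to 0.65). The helicase gene Twnk (chr19:45005663-45012762, plus strand) was at 5.82 CPM (22 UMIs) in CT, 4.31 CPM (14 UMIs) in mt-normal and 6.68 CPM (35 UMIs) in mt-low cells. All 3 of its intervals overlapped, and its ratio of 0.63 (-0.30 to 1.64) was not separable from 0 at this depth. Polg (chr7:79446231-79466362, minus strand), the DNA polymerase gene, was the one member below 0 in mt-low over mt-normal cells. It was at 37.6 CPM (31.7 to 44.3, 142 UMIs) in CT, 27.1 CPM (21.7 to 33.4, 88 UMIs) in mt-normal and 24.2 CPM (20.2 to 28.8, 127 UMIs) in mt-low cells. The log2 ratio of mt-low over mt-normal cells was -0.16 (-0.57 to 0.25), and both groups were below CT in value.

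The partners of the mRNA-stabilizing complex were both above 0 in mt-low over mt-normal cells, with intervals that overlapped. Lrpprc (chr17:84705247-84790789, minus strand) was at 14.8 CPM (11.2 to 19.2, 56 UMIs) in CT, 12.0 CPM (8.54 to 16.4, 39 UMIs) in mt-normal and 19.5 CPM (15.9 to 23.6, 102 UMIs) in mt-low cells, a log2 ratio of 0.70 (0.15 to 1.27) between the mt groups. Slirp (chr12:87443896-87452206, plus strand) was at 186 CPM (172 to 200.1, 702 UMIs) in CT, 208 CPM (192 to 224, 674 UMIs) in mt-normal and 236 CPM (223 to 249, 1237 UMIs) in mt-low cells. Its log2 ratio between the mt groups, 0.18 (0.05 to 0.32), was 0.01 above that of the typical gene. In the annotation (GENCODE M21), Tfb1m, Tfb2m, Twnk, Polg, Lrpprc and Slirp overlap genes on the opposite strand, among them Polg with Fanci, Slirp with Snw1 and Twnk with Mrpl43, and no member overlaps a gene on its own strand.

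**Figure D2:**
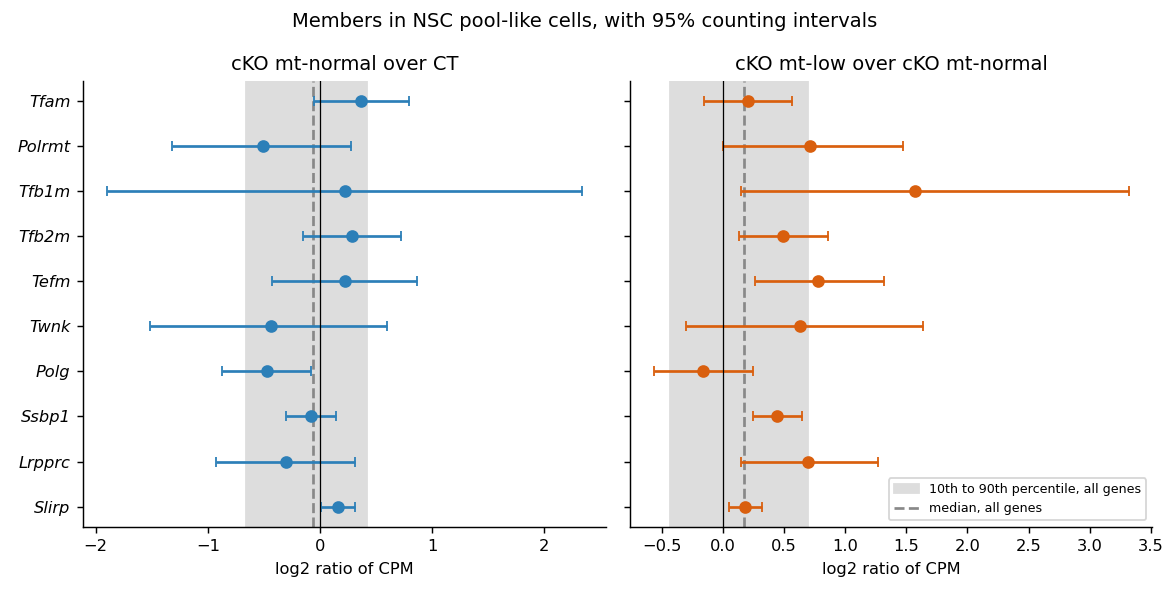
Log2 ratio of CPM (horizontal axis) of each member in NSC pool-like cells, for Opa1 cKO mt-normal over CT (left, blue) and Opa1 cKO mt-low over mt-normal cells (right, orange), with 95% counting intervals. The grey band spans the 10th to 90th percentile and the dashed line marks the median of all genes with at least 20 UMIs. On the right 9 of 10 members lie above 0, as do 66.0% of those genes, and on the left the members lie on both sides of 0.

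Stress transcripts moved with the same division. The stress regulator Ddit3 was at 49.5 CPM in CT, 124 in mt-normal and 475 in mt-low cells, and Atf4 was at 77.6, 100.4 and 280 CPM. Trib3, an ATF4 target, had 0 UMIs in CT, where 3 UMIs would be 0.794 CPM, and was at 23.4 CPM in mt-normal and 122 CPM in mt-low cells. Asns, the asparagine synthetase gene, was at 0.265, 17.9 and 108 CPM. The mt-normal values were uneven over the clusters. In the 218 mt-normal cells of the Nupr1-led cluster, Atf4 was at 241, Ddit3 at 389, Trib3 at 82.9 and Asns at 65.1 CPM, and in the other 791 mt-normal cells they were at 63.4, 53.7, 7.78 and 5.45 CPM. The 16 stress genes listed summed to 1483, 2672 and 7940 CPM in the 3 groups. Ddit3 and Trib3 were among the genes that led the Nupr1 cluster. Median UMIs per cell were 2494 in CT, 2951 in mt-normal and 2961 in mt-low cells. Of markers of other cells, the mural list summed to 150 CPM in CT, 113 in mt-normal and 106 in mt-low cells, with 0 of 7 genes at 0 in each group. The oligodendrocyte precursor list summed to 89.99, 165 and 356 CPM and was carried by Olig1, with Pdgfra and Gpr17 at 0 in all 3 groups. The blood list of globin genes was at 280 CPM in CT and 8.32 and 8.97 CPM in mt-normal and mt-low cells. The ependymal list was at 138, 167 and 72.7 CPM in the 3 groups, and the oligodendrocyte list at 132, 168 and 125 CPM. Markers of the class itself also differed. The astrocyte list summed to 4929, 5006 and 3852 CPM and the NSC pool list to 62405, 65949 and 51656 CPM. Within the NSC pool list, Gfap was higher in mt-low cells, at 456, 636 and 1389 CPM, and Id3 lower, at 661, 737 and 359 CPM. The part of stress, of other cells or of cell identity in the members' levels was not tested.

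Along the mt share, the members did not follow one course. In the 4 bins of Opa1 cKO NSC pool-like cells, from at least 3% (768 cells) through 1 to 3% (241 cells) and 0.5 to 1% (582 cells) to under 0.5% (992 cells), the members' sum was at 415, 460.1, 515 and 534 CPM. The neighbouring bins overlapped in their intervals, while the outer bins did not (391 to 441 against 510.1 to 560 CPM). Between the outer bins, under 0.5% over at least 3%, the median log2 ratio of all genes was 0.24. Part of the difference in the sum is thus shared with the typical gene. CPM is over all UMIs, and the mt mRNAs that set the bins made up 0.314% and 5.87% of them in these 2 bins. Ssbp1 was higher with each step, its neighbouring intervals overlapping, at 91.1 CPM (79.7 to 104), 99.8 CPM (78.1 to 126), 120 CPM (105 to 137) and 130 CPM (118 to 143). Tefm was at 15.1 CPM (10.7 to 20.7), 6.93 CPM (2.25 to 16.2), 14.4 CPM (9.52 to 21.02) and 27.3 CPM (22.0 to 33.4). In the lowest bin its interval lay above those of CT and of the other 3 bins, which overlapped with CT. Tfb2m had another course, at 24.2 CPM (18.5 to 31.0), 43.0 CPM (29.2 to 61.0), 38.0 CPM (29.7 to 47.9) and 40.9 CPM (34.4 to 48.3). Its level stood near that of CT at 3% or more and was alike in the 3 bins under 3%. Polg was at 27.3, 26.3, 27.3 and 22.5 CPM, under the CT value of 37.6 CPM in each bin.

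**Figure D3:**
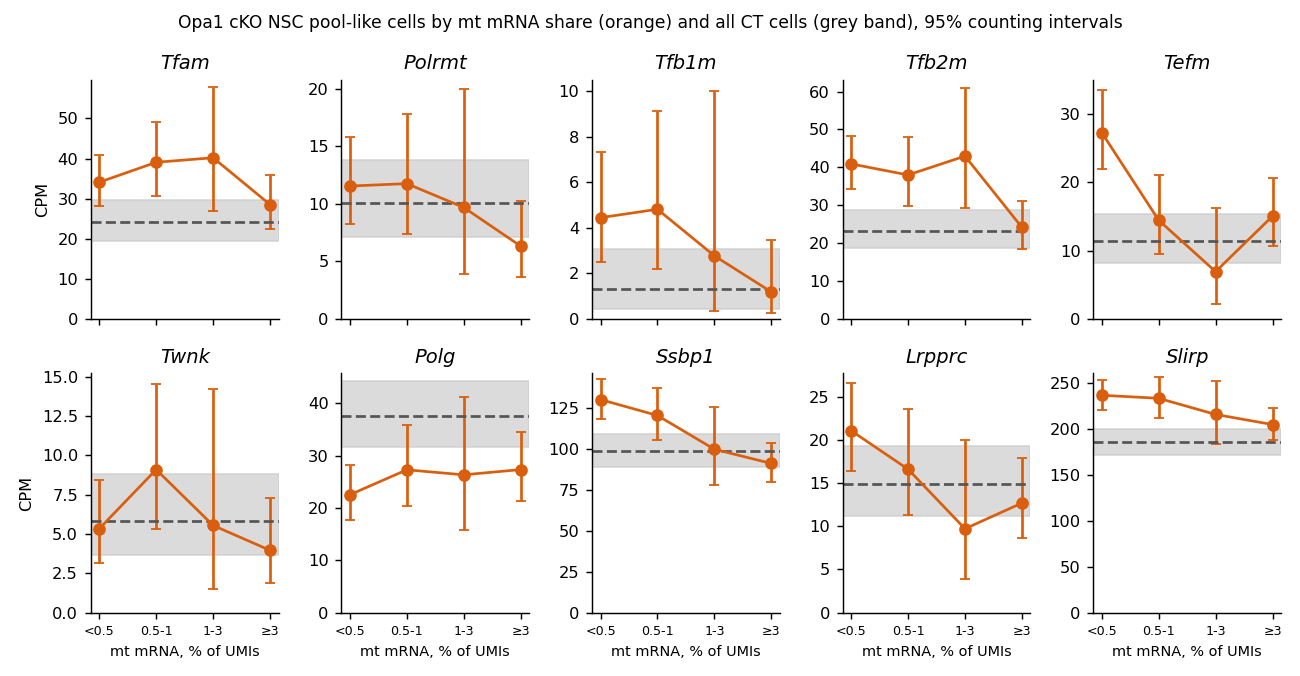
CPM of each member (vertical axis, from 0) in Opa1 cKO NSC pool-like cells in 4 bins of the share of UMIs from mt mRNAs (horizontal axis, percent; the lowest share on the left), with 95% counting intervals. The dashed line and grey band give all CT NSC pool-like cells and their interval. Tefm stands out in the bin under 0.5% at 27.3 CPM, whereas Tfb2m is near 40 CPM in each bin under 3% and at 24.2 CPM at 3% or more.

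The 218 mt-normal cells of the Nupr1-led cluster lie between the other groups. Their mt mRNAs made up 1.72% of UMIs, against 5.80% in the 791 mt-normal cells of the other cluster and 0.445% in the mt-low cells of the Nupr1-led cluster, and their Ddit3 was at 389 CPM, against 53.7 and 475 CPM. Tfb2m was at 24.5 CPM (18.8 to 31.4, 63 UMIs) in the mt-normal cells of the other cluster, 42.9 CPM (28.8 to 61.7, 29 UMIs) in these 218 cells and 39.9 CPM in the mt-low cells. Tfam was at 28.4 CPM (22.3 to 35.7), 41.5 CPM (27.5 to 59.9) and 35.9 CPM in the same order. For both genes the interval of the 218 cells overlapped that of the mt-low cells and that of the other 791 mt-normal cells. The counts thus separate the 218 cells from neither group. Tefm was at 14.8 CPM (10.5 to 20.3, 38 UMIs), 7.40 CPM (2.40 to 17.3, 5 UMIs) and 22.7 CPM, so for Tefm the 218 cells were below the mt-low cells. Within the Nupr1-led cluster alone, the ratio of mt-low over mt-normal cells was thus 1.62 for Tefm, -0.11 for Tfb2m and -0.21 for Tfam. Clusters were formed from the same cells, so these values are a description.

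In Opa1 cKO cells with mt mRNA at 1% of UMIs or more, the members as a group were close to CT. In mt-normal Opa1 cKO over CT NSC pool-like cells, the members' sum had a log2 ratio of 0.04 (-0.06 to 0.15), and the median of the 9 members with at least 20 UMIs was -0.08, against -0.06 over 10615 genes. None of these 9 members was at least 1.5-fold higher or lower, where 4.95% of genes were higher and 12.8% lower. Polg was lower at -0.47 (-0.87 to -0.08), Tfam was at 0.37 (-0.05 to 0.79) and Slirp at 0.16 (0.01 to 0.32). The intervals of Tfam and Slirp lay above the median of all genes and that of Polg below it, as did those of 16.6% and 13.9% of genes. The 1009 mt-normal cells were mixed, with 241 at 1 to 3% of mt mRNA. The 218 of them in the Nupr1-led cluster were at 1.72%. Tfam was at 41.5 CPM (27.5 to 59.9) in those 218 cells, 28.4 CPM (22.3 to 35.7) in the other 791 and 24.1 CPM in CT.

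In mt-low Opa1 cKO over CT cells, which share their cells with the comparisons above, Tfb1m, Tefm and Tfb2m were at least 1.5-fold higher and Polg at least 1.5-fold lower, where 20% of 10927 genes were higher and 15.7% lower. The log2 ratio was 1.79 (0.37 to 3.54) for Tfb1m, 1.00 (0.48 to 1.53) for Tefm, 0.78 (0.41 to 1.15) for Tfb2m and -0.63 (-0.99 to -0.28) for Polg. Tfb1m passed the minimum of 20 UMIs through the mt-low cells, with 24 UMIs there and 5 in CT. Tfam was at 0.57 (0.21 to 0.95), just short of 1.5-fold. Slirp and Ssbp1 were at 0.34 (0.21 to 0.48) and 0.36 (0.18 to 0.55), and Polrmt, Twnk and Lrpprc had intervals that held 0. The median was 0.38 over the members and 0.08 over all genes.

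Over all Opa1 cKO against all CT NSC pool-like cells, 3 of 10 members were at least 1.5-fold higher (Tfb1m, Tefm and Tfb2m) and 0 at least 1.5-fold lower, where 14.0% of 11298 genes were higher and 13.1% lower. The sum of the members had a log2 ratio of 0.24 (0.16 to 0.33), at 489 over 413 CPM. Tefm was at 0.75 (0.25 to 1.27), Tfb2m at 0.61 (0.26 to 0.97), Tfam at 0.50 (0.15 to 0.86) and Polg at -0.57 (-0.88 to -0.25). Tfb1m, at 1.37 (-0.02 to 3.09), passed the minimum of UMIs through the Opa1 cKO cells, with 29 UMIs there and 5 in CT. The interval of Tfb1m held 0. Polrmt and Twnk, at -0.02 (-0.59 to 0.57) and -0.01 (-0.77 to 0.78), did not differ beyond counting error.

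Within CT, where Opa1 was not floxed, the members did not move with mt share beyond counting error. CT NSC pool-like cells were divided at their median mt share of 5.24%, which gave 2 groups of 689 cells with 3.99% and 7.56% of UMIs from mt mRNAs. The members' sum was at 418 CPM in the group below and 408 CPM in the group above, a log2 ratio of 0.04 (-0.11 to 0.18). Of 9 members with at least 20 UMIs, 0 were at least 1.5-fold higher and 0 lower, where 8.35% of 9717 genes were higher and 5.75% lower. The interval of each of the 10 members held 0, among them Tefm at 0.40 (-0.53 to 1.34) and Ssbp1 at 0.24 (-0.06 to 0.54). This range of mt share is far narrower than that between the Opa1 cKO groups.

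Across the other classes, the interval of the members' ratio of Opa1 cKO over CT lay above 0 in progenitor and neuron-like and in oligodendrocyte-like cells and held 0 in the other 4. Activated NSC-like cells have Frzb and Mycn among their leading genes, and since the clustering of all cells left 11 CT cells in that class, its CT value is taken from a re-clustering of the lineage cells, with 47 CT and 294 Opa1 cKO cells. There the mt share was 6.39% for CT and 2.14% for Opa1 cKO, and the members were at 599.6 CPM (474 to 748) and 594 CPM (545 to 647), a log2 ratio of -0.01 (-0.36 to 0.35). The class depends on the clustering, and no cluster took its name without mt, stress and member genes or with cells without YFP kept. Of 5 members with at least 20 UMIs there, 1 was at least 1.5-fold higher (Tfb2m, 0.86, from 3 CT UMIs) and 1 lower (Polg, -1.18, from 7), where 24.4% of genes were higher and 19% lower. Ependymal-like cells (39 CT and 244 Opa1 cKO) had mt shares of 6.32% and 1.11%, the largest fall in share of the 7 classes, and a ratio of -0.03 (-0.44 to 0.41), which rests on 53 CT UMIs. Oligodendrocyte-like cells (74 and 101 cells) had mt shares of 4.96% and 4.78%, with 0 cells under 1%, and the members were at 374 CPM in Opa1 cKO and 215 CPM in CT, a ratio of 0.80 (0.37 to 1.24). In progenitor and neuron-like cells (139 and 169 cells) mt shares were 4.27% and 1.56%, and the members were at 628 CPM in Opa1 cKO against 471 CPM in CT, a ratio of 0.41 (0.17 to 0.67). Mural-like (94 and 169) and endothelial-like cells (55 and 89) had ratios of 0.34 (-0.08 to 0.78) and 0.24 (-0.16 to 0.66).

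**Figure D4:**
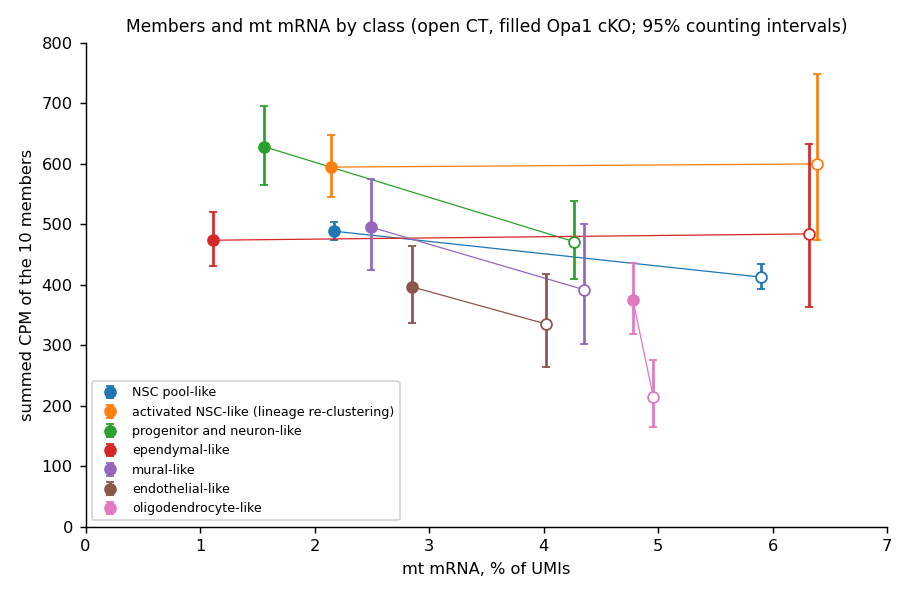
Summed CPM of the 10 members (vertical axis, from 0) against the share of UMIs from mt mRNAs (horizontal axis, percent) for each class, with open points for CT, filled points for Opa1 cKO and a line joining the libraries of a class. Lines on the points are 95% counting intervals. The sums of ependymal-like and activated NSC-like cells overlap between the libraries, and those of oligodendrocyte-like cells, at 374 and 215 CPM, do not.

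Slirp made up most of the difference in oligodendrocyte-like cells, at 86.8 CPM (25 UMIs) in CT and 207 CPM (90 UMIs) in Opa1 cKO, which is 1.25 (0.60 to 1.95) on the log2 scale. It was also higher in progenitor and neuron-like cells, at 0.91 (0.45 to 1.40), and in endothelial-like cells, at 0.73 (0.04 to 1.47). In ependymal-like cells it was at -0.05 (-0.68 to 0.64). In the oligodendrocyte-like, progenitor and neuron-like and endothelial-like classes, 15.1%, 15.2% and 13% of genes with at least 20 UMIs were at least 1.5-fold higher in Opa1 cKO, and 17.2%, 19.9% and 19.5% at least 1.5-fold lower. Tfb2m was lower in ependymal-like cells, at 24.2 CPM (23 UMIs) against 73.1 CPM (8 UMIs), a ratio of -1.59 (-2.81 to -0.22), in a class where 22.3% of genes were at least 1.5-fold higher and 17.7% lower. Counts of single members were low in these classes, and the other members are not described there.

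Within the Opa1 cKO library, the division at 1% could be repeated in 3 other classes with at least 50 cells on each side. The mt shares of the 2 sides lay closer together there than in NSC pool-like cells (0.445% and 4.95%). They were 0.642% and 2.18% in activated NSC-like, 0.557% and 2.29% in ependymal-like, and 0.726% and 2.29% in progenitor and neuron-like cells. In the same order, 156, 45 and 55 of the mt-normal cells were under 2%. In activated NSC-like cells, here those of the clustering of all cells (122 mt-low and 287 mt-normal), the members' sum had a log2 ratio of -0.18 (-0.43 to 0.05). There 0 of 6 members with at least 20 UMIs were past 1.5-fold in either direction, where 10.2% of genes were higher and 12.3% lower. This class did not appear when cells were clustered without mt, stress and member genes or with cells without YFP kept. In ependymal-like cells (173 and 71) the ratio was 0.20 (-0.09 to 0.51), with 0 of 6 members past 1.5-fold, where 11.9% of genes were higher and 10.6% lower. In progenitor and neuron-like cells (80 and 89) it was 0.17 (-0.13 to 0.48), with 0 of 4 members past it, where 10.7% of genes were higher and 10.6% lower. Tefm was at 2 and 14 UMIs in activated NSC-like cells and at 15 and 3 UMIs in ependymal-like cells, with intervals that held 0 in both. Whether the classes differ from NSC pool-like cells was not tested, since each is 1 library.

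The wider pathway was read from a list of 73 other genes, of which 71 were in the matrices and 69 had at least 20 UMIs in the mt-low and mt-normal cells. Of these 69, 15 were at least 1.5-fold higher and 1 at least 1.5-fold lower in mt-low over mt-normal NSC pool-like cells, and 61 were above 0, beside 15.1%, 6.16% and 66.0% of all genes. The intervals of 11 of the 69 lay above the median of all genes and those of 3 below it, beside 16.3% and 16.1% of all genes. The median log2 ratio was 0.33, and from 0.12 to 0.43 under other settings. The lower gene, named after its value was seen, was the nucleoside diphosphate kinase gene Nme4, at 14.8 CPM (48 UMIs) in mt-normal and 9.73 CPM (51 UMIs) in mt-low cells, a ratio of -0.60 (-1.20 to -0.0045). Genes of mt RNA processing, modification and decay had 27 of 28 above 0 and a median of 0.41, with 6 at least 1.5-fold higher. Replication and repair genes had 4 of 14 at least 1.5-fold higher (median 0.29), nucleotide supply 1 of 11 (median 0.25), the MTERF family with Mrpl12 2 of 6 (median 0.31), and upstream regulators and turnover 2 of 10 (median 0.29). Some genes counted as higher passed the minimum of 20 UMIs mainly through the mt-low cells. Examples are Top3a (22 UMIs in mt-low and 3 in mt-normal cells) and Mterf1b (19 and 5).

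Among genes with at least 100 UMIs, the highest was Lonp1, the matrix protease for which TFAM is a substrate. It was at 33.9 CPM in CT, 39.4 CPM in mt-normal and 82.4 CPM in mt-low cells, a log2 ratio between the mt groups of 1.06 (0.78 to 1.36). The RNA-binding Fastkd2 followed at 0.92 (0.37 to 1.496). Mtpap, which adds poly(A) tails to mt mRNAs, was at 0.89 (0.47 to 1.32), and Pde12, which removes them, was at 0.81 (0.38 to 1.25). Mterf3, of the termination factor family, was at 0.78 (0.39 to 1.19). The mt carriers for pyrimidine nucleotides stood at opposite ends of the list. Slc25a33 was at 140 CPM in CT, 182 in mt-normal and 324 in mt-low cells, a ratio of 0.83 (0.70 to 0.97), and Slc25a36 was at 65.4, 38.2 and 33.0 CPM, a ratio of -0.21 (-0.55 to 0.13). The other low genes were at or near 0, with Suclg1 of succinyl-CoA ligase at -0.04 (-0.15 to 0.08), the base excision repair gene Apex1 at -0.02 (-0.26 to 0.22) and Mterf2 at 0.01 (-0.39 to 0.41). Hsd17b10, a subunit of mitochondrial RNase P, was at 0.09 (-0.05 to 0.23), and Lactb2, an endoribonuclease, was at 0.14 (-0.28 to 0.56). Mterf1a and Mterf1b are near-identical copies, so their counts are uncertain.

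**Figure D5:**
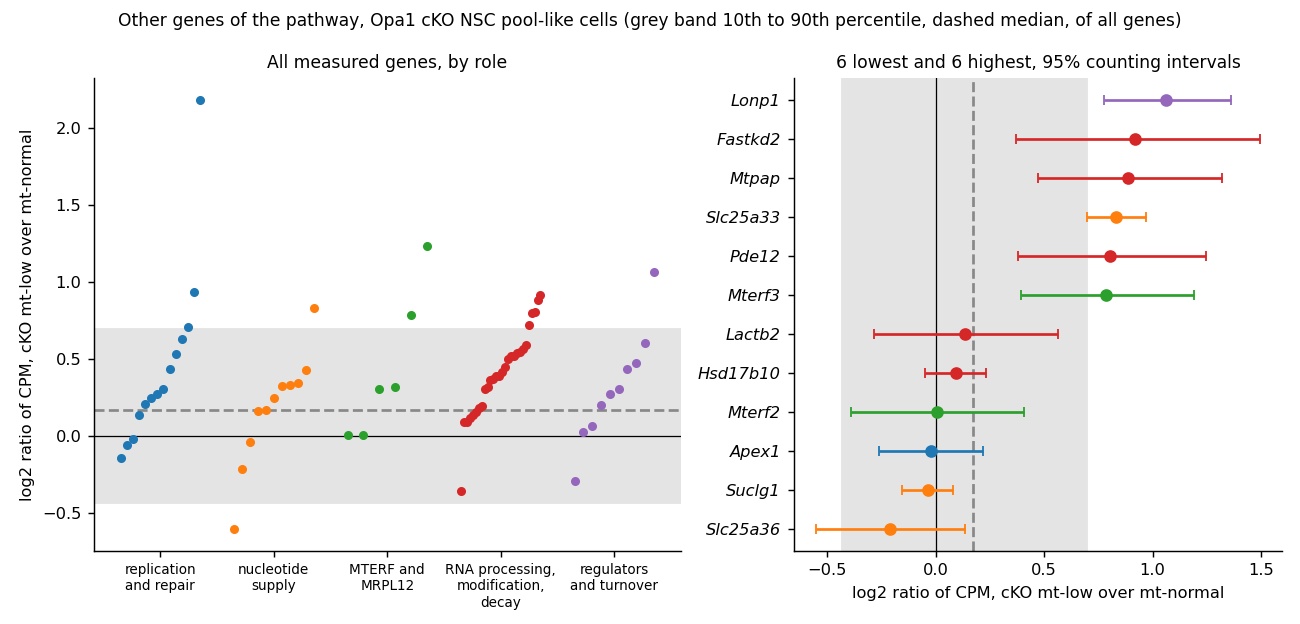
Log2 ratio of CPM in Opa1 cKO mt-low over mt-normal NSC pool-like cells for the other genes of the pathway: all 69 with at least 20 UMIs by role (left, vertical axis, 1 point per gene), and the 6 lowest and 6 highest of those with at least 100 UMIs, with 95% counting intervals (right, horizontal axis). The grey band spans the 10th to 90th percentile and the dashed line marks the median of all genes. Lonp1 is highest at 1.06 and Slc25a36 lowest at -0.21 on the right.

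Genes whose levels followed the members were sought over the 14 groups of class by library among 5337 genes with at least 500 UMIs, by Pearson's r of log2(CPM + 10). Of the 10 members, 4 had enough UMIs. Tfb2m was nearest to Ak6 (0.95), Rcbtb2 (0.91) and Ip6k2 (0.90), and Ssbp1 to Ube2e1 (0.93), Tdp2 (0.92) and Acat1 (0.91). Slirp was nearest to Tom1l1 (0.84), Ndufab1 (0.84) and Timm21 (0.83), and Tfam to Gpx7 (0.79), Pih1d1 (0.79) and Snx21 (0.76). The 14 points share 2 libraries and differ in depth, and the CT activated NSC-like point rests on 11 cells, so these values describe the groups and carry no test.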

How the data were processed

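Counts of UMIs per gene and barcode were deposited by the authors as 1 unnormalized matrix per genotype, made with Cell Ranger on mm10 (the labels name version 2.1.1 and the matrix headers 3.1.0). From them, cells were kept with over 600 and under 7500 genes, under 20% of UMIs from mt genes and at least 1 YFP UMI, after the study's filters. Without the YFP filter 4186 CT and 6121 Opa1 cKO cells passed. With it 1790 and 3764 passed, fewer than the study reports. Clustering used sctransform 0.4.2 and Seurat 5.3.0 (R 4.3.3) (8 dimensions, resolution 0.2; lineage cells again with 12 and 0.1). Clusters were named from marker lists, and the form of the naming rule was set after the clusters had been seen. Scrublet (in scanpy 1.11.5) called 2 of 1790 CT and 3 of 3764 Opa1 cKO cells as doublets and so is taken not to have worked. UMIs were summed per group and set to CPM over all UMIs of the group. Medians of UMIs per kept cell were 2555 and 3008. A gene needed 20 UMIs in the 2 groups compared, and called means a 1.5-fold difference, since 1 pooled library per genotype allows no test. A group with 0 UMIs was set at 3 counts. Genes of the wider list were named by a rule, as the 6 highest and 6 lowest in mt-low over mt-normal cells of those with at least 100 UMIs. The scripts were tested on simulated data. The members, lists and comparisons were chosen with earlier results of these data known. In all, 11 other settings were tried, and 3 more were added after seeing the data (no cells of most UMIs, no shared barcodes, the Nupr1-led cluster only). The summed level of the microglia list is not reported here.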

Additional observations from a re-analysis of the deposited data

Results flagged for a closer look

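Tfb2m had opposite directions in 2 classes under the same contrast of Opa1 cKO over CT. The log2 ratio was 0.61 in NSC pool-like cells and -1.59 in ependymal-like cells. The difference between the classes was not tested, since each genotype is 1 library, and the CT value in ependymal-like cells rests on 8 UMIs in 39 cells.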

How the results depend on the processing

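Of 520 values of single members under the alternatives, 515 lay within the counting interval of the reported value, although some of those whose interval held 0 changed sign, and of 228 summaries 199 were alike. Tfb2m in mt-low over mt-normal cells was -0.11 within the Nupr1-led cluster in place of 0.49, and Tfam, Tefm, Twnk and Ssbp1 were -0.21, 1.62, -0.41 and 0.23 there. The median of the members in this comparison ranged from 0.13 to 0.59 over the alternatives, the lowest being that cluster alone. The count of members at least 1.5-fold higher in it, 5, was 3 with cells thinned to 1500 UMIs, 1 with cells without YFP kept, 2 with cells clustered without mt, stress and member genes, 2 at a minimum of 100 UMIs, 3 with the division at 2% and 2 within the Nupr1-led cluster. In the wider list, 9 genes in place of 15 were higher at a minimum of 100 UMIs. The count of lower genes there, 1, was 2 after thinning and without the cells of most UMIs, 5 within the Nupr1-led cluster, and 0 with cells without YFP kept, in the other clusterings, at 100 UMIs and without shared barcodes. In mt-normal over CT cells the count of lower members, 0, was 2 after thinning, 1 with the groups at 0.5% and 3%, and 1 without the cells of most UMIs. In mt-low over CT cells the count of lower members, 1, was 0 by the mean of per-cell CPM and with cells without YFP kept. In all Opa1 cKO over CT cells the count of lower members, 0, was 1 over nuclear-encoded UMIs, after thinning and when clustered without those genes, and the count of higher members, 3, was 1 after thinning. Within CT, the count of lower members, 0, was 2 over nuclear-encoded UMIs, 1 by the mean of per-cell CPM and 1 without shared barcodes, and the count of higher members, 0, was 1 after thinning and 1 with no minimum. These counts are given without the number of members tested or the share of all genes under each setting, and the causes were not tested. No paired analysis was possible because each genotype is 1 library. Depth limits Tfb1m, Twnk and Polrmt most, at 5 to 61 UMIs a group, and the spread between mice is not measured.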
